A study of Mus musculus with 40 samples.

Results

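S100a8, S100a9, Fpr1, Fpr2, Ly6g, Retnlg, Clec4d, Clec4e, Trem1 and Csf3r, 10 genes used as markers of mouse neutrophils, were followed in the tumors of 40 mice by their symbols in the table of read counts. Of the 10 symbols, 9 named one of the 54087 entries of the table, and 8 passed the filter on low counts, as did 14760 genes in all. Ly6g was too low to test. Retnlg was not analysed under that symbol: the table spells one entry Retnig, beside another spelled Retnia, and its values are given under that spelling and not counted among the 9.

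Neutrophils are short-lived granulocytes that leave the bone marrow under the control of the growth factor G-CSF, follow chemokines, complement fragments and formylated peptides into inflamed tissue, and act there through stored granule proteins, reactive oxygen species and cytokines. In tumors they are a varied population, and a good part of their receptors is shared with monocytes and macrophages. S100a8 and S100a9 encode the subunits of calprotectin, the most abundant protein complex of the neutrophil cytosol. Fpr1 and Fpr2 encode receptors for formylated peptides, Clec4d (MCL) and Clec4e (Mincle) encode C-type lectin receptors for microbial glycolipids and products of dead cells, Trem1 encodes a receptor that amplifies inflammatory signals, Csf3r encodes the receptor for G-CSF, and Ly6g encodes the surface antigen by which mouse neutrophils are usually stained.

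BALB/c mice carried subcutaneous tumors grown from 1000000 CT26 cells, a mouse colon carcinoma line, and received antibodies on days 6, 9 and 12. Tumors were taken on day 13, and RNA from pieces of whole tumor was sequenced as stranded mRNA libraries, 1 per mouse. There were 8 groups of 5 mice, all bearing CT26. The control group received the isotype antibody motavizumab (mIgG2a). Anti-GARP:TGF-β1, clone 58A2, blocks release of active TGF-β1 from cells that carry GARP, such as regulatory T cells, and was given either as mIgG2a WT or in an Fc-dead format (FcD) that does not bind Fcγ receptors. Anti-TGF-β (clone 1D11) neutralizes the cytokine itself, and anti-PD-1 was given in a silenced Fc format (FcSilent). These were the 4 single-antibody groups, and in the other 3 groups anti-PD-1 was combined with anti-GARP:TGF-β1 WT (the WT combination), with anti-GARP:TGF-β1 FcD (the FcD combination) or with anti-TGF-β (the anti-TGF-β combination). The comparisons ask what each antibody does alone and what it adds to anti-PD-1. CT26 is a single transplanted line, and whole tumor pieces hold tumor, stromal and immune cells together, so more or fewer neutrophils and more or less RNA per neutrophil cannot be told apart.

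Counted reads ran from 11931730 to 20680548 per mouse, with a median of 14030511. Levels are given as CPM, the reads of a gene per 1000000 counted reads after TMM scaling of library sizes, and mice are named by the library number in their sample title. These numbers run from 41 to 80, and what they stand for is not given in the sources used here. Each group had 2 or 3 mice among libraries 41 to 60 and the rest among libraries 61 to 80. Over all tested genes, 248 differed between these 2 ranges of library numbers at an adjusted p under 0.05, so values within each range are also given.

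Several of the genes are neighbors in the genome (GRCm38, GENCODE vM21). S100a8 (chr3:90668978-90670035, plus strand) and S100a9 (chr3:90692632-90695721, minus strand) lie 22596 bases apart. Fpr1 (chr17:17876471-17883940, minus strand) and Fpr2 (chr17:17887824-17893952, plus strand) are 3883 bases apart. Clec4d (chr6:123262111-123275265, plus strand) and Clec4e (chr6:123281789-123289870, minus strand) are 6523 bases apart. Trem1 (chr17:48232768-48246924), Csf3r (chr4:126024550-126044440) and Ly6g (chr15:75155240-75159126) are all on the plus strand.

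Because these pairs lie close together, proximal promoters are shown for 5 of the 6 genes. That of S100a8 is left out, since the window overlaps the first exon of S100a8 in GENCODE. Each is the 250 bases before the RefSeq start site (GRCm38.p6), written 5′ to 3′ on the strand of the gene. Capitals mark the letters TTNNGCAA, which resemble the binding motif of C/EBP factors, and GAGGAA, which resemble that of PU.1, on either strand. Both factor families act in myeloid cells.
S100a9 (chr3:90695722-90695971, minus strand): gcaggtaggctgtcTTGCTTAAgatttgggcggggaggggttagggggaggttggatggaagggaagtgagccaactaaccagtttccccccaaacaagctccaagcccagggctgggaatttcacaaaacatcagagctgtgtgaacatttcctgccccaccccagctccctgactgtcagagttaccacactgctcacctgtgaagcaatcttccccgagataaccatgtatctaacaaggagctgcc
Fpr1 (chr17:17883940-17884189, minus strand): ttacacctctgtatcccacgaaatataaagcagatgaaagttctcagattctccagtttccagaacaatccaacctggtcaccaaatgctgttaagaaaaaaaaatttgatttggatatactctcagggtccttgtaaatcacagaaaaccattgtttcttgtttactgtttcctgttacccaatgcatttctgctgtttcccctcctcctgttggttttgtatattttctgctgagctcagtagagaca
Fpr2 (chr17:17887574-17887823, plus strand): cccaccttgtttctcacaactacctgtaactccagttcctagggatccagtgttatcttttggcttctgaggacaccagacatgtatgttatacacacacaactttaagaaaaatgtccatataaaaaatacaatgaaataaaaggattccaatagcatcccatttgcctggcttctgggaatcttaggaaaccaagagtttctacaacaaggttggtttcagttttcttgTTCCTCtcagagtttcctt
Clec4d (chr6:123261857-123262106, plus strand): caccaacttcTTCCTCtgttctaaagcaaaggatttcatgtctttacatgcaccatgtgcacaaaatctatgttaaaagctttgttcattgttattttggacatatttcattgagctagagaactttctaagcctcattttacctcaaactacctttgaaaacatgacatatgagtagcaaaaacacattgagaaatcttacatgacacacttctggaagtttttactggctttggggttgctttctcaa
Clec4e (chr6:123289872-123290121, minus strand): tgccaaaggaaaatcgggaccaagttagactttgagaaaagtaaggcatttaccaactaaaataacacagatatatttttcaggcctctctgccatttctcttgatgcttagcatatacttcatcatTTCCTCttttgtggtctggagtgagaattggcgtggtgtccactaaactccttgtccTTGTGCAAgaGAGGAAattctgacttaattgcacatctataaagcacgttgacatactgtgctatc

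All 10 symbols had a promoter in the RefSeq table. TTNNGCAA occurred in 4 of the 10 (S100a9, Ly6g, Retnlg and Clec4e) and in 9.56% of all 32851 promoters of the table, searched over the same 250 bases. GAGGAA occurred in 7 of the 10 (S100a8, Fpr2, Ly6g, Clec4d, Clec4e, Trem1 and Csf3r) and in 23.3% of those promoters. Clec4e held both within a short stretch, TTGTGCAA at bases -66 to -59 and GAGGAA at -56 to -51, and the Fpr1 window held neither. The only match of Csf3r and 1 of the 2 matches of S100a8 lie inside the gene as GENCODE annotates it, where the RefSeq start is further downstream. The matches did not overlap one another. They describe letters, not occupied sites.

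In no comparison did any of the 8 tested genes pass an adjusted p of 0.05 in edgeR's quasi-likelihood test with Benjamini-Hochberg adjustment over all tested genes. The 3 combinations had higher mean levels than the isotype control for all 8 genes. The median log2 fold change of the 8 genes against isotype was 1.01 in the WT combination, 1.59 in the FcD combination and 0.97 in the anti-TGF-β combination, beside -0.0045 for anti-GARP:TGF-β1 WT alone, -0.23 for FcD alone, 0.71 for anti-TGF-β alone and 0.37 for anti-PD-1 alone. With 1 mouse left out at a time, these medians ran from 0.79 (without mouse 77) to 1.64 (without isotype mouse 46) in the WT combination, from 1.15 to 1.77 in the FcD and from 0.74 to 1.10 in the anti-TGF-β combination. For the antibodies alone they ran from -0.098 to 0.18 for WT, from -0.39 (without mouse 41) to -0.056 (without isotype mouse 46) for FcD, from -0.047 (without mouse 48) to 0.86 for anti-TGF-β and from -0.025 (without mouse 52) to 0.49 for anti-PD-1. The median over all tested genes lay near 0 in each of these comparisons. The plot of every mouse shows how wide the spread within groups was.

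**Figure D1:**
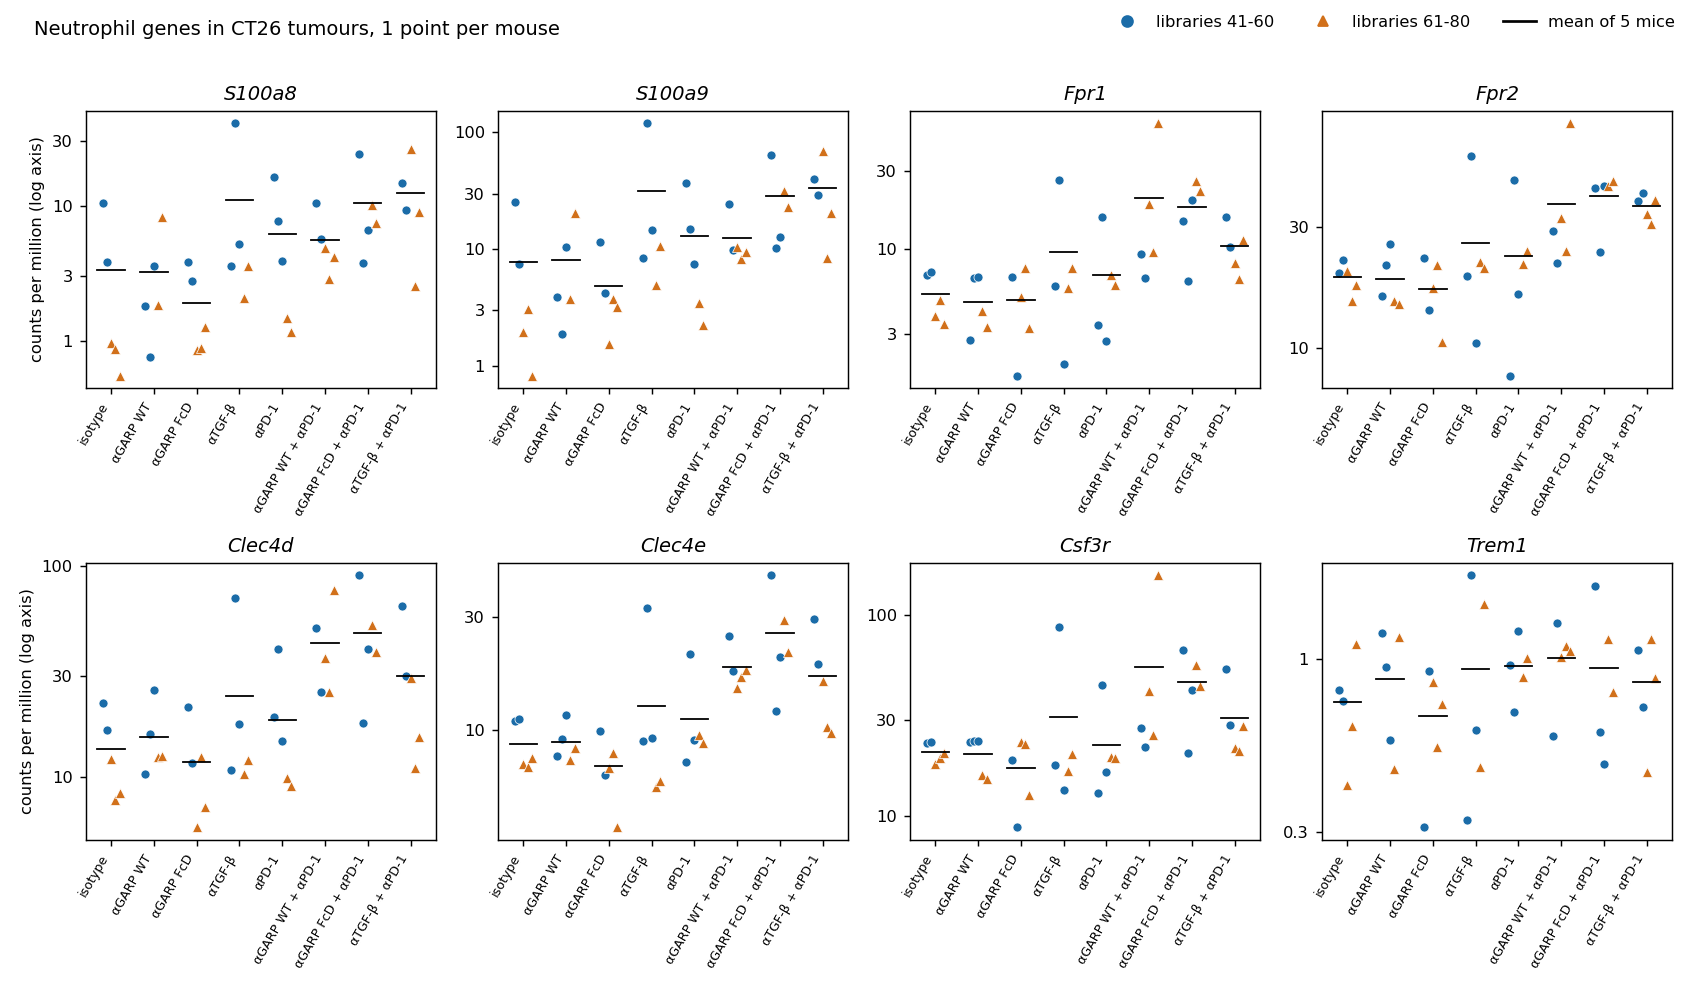
Level of 8 neutrophil genes in each of 40 mice, in CPM on a log axis, by treatment group (α stands for anti, and αGARP for anti-GARP:TGF-β1). Blue circles are libraries 41 to 60, orange triangles libraries 61 to 80, and black lines the means of 5 mice. The combination groups, at the right of each panel, lie high for the lectin and formyl peptide receptor genes, Trem1 means stay between 0.670 and 1.01 CPM, and single mice stand far above their groups, such as the anti-TGF-β mouse at 119.9 CPM of S100a9.

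Per kilobase of exon, the mean level over the 40 mice was highest for S100a9 (33.5 CPM per kb), followed by Fpr2 (20.9), Clec4d (16.0), S100a8 (9.73), Csf3r (8.48), Fpr1 (7.59), Clec4e (2.74), Trem1 (0.290) and Ly6g (0.0474). S100a8 and S100a9, the calprotectin pair, were the most variable of the genes. Within groups, the standard deviation of log2 CPM was 1.34 for S100a9 and 1.27 for S100a8, larger than in 99.0% and 98.8% of tested genes, and the median gene had 0.249. It was 0.89 for Fpr1, 0.83 for Clec4d, 0.72 for Csf3r, 0.59 for Clec4e and 0.57 for Fpr2.

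In the isotype group S100a9 stood at 25.4, 7.47, 1.94, 3.06 and 0.831 CPM in mice 46, 51, 63, 74 and 78. With the FcD combination it stood at 64.4, 10.3, 12.7, 31.6 and 22.8 CPM in mice 44, 50, 60, 71 and 80, and with the anti-TGF-β combination at 39.9, 29.1, 69.3, 8.48 and 20.5 CPM in mice 53, 57, 62, 66 and 68. One isotype mouse, mouse 46, lay inside the range of both combinations, and the other 4 isotype mice lay below every mouse of each. The WT combination was narrower, with 24.6, 9.91, 10.4, 8.18 and 9.40 CPM in mice 45, 55, 64, 69 and 77, all below isotype mouse 46. Means were 7.74 ± 10.2 CPM in isotype mice, 12.5 ± 6.83 in the WT combination, 28.4 ± 21.9 in the FcD combination and 33.4 ± 23.1 in the anti-TGF-β combination (± SD, n = 5 each). Against isotype the log2 fold change was 2.09 ± 0.85 in the anti-TGF-β combination (adjusted p = 0.187), 1.86 ± 0.85 in the FcD combination (adjusted p = 0.278) and 0.67 ± 0.84 in the WT combination (adjusted p = 0.644). Isotype mouse 46 weighed on all 3: without it the values were 3.34, 3.09 and 1.91, with adjusted p from 0.2 to 0.247 in edgeR's test.

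Anti-TGF-β alone also had a high S100a9 mean, 31.7 ± 49.4 CPM (SD, n = 5), but the value rested on 1 tumor: mice 43, 48, 59, 72 and 79 stood at 8.40, 119.9, 14.7, 4.92 and 10.6 CPM. Mouse 48 had 1538 reads of S100a9. The log2 fold change against isotype was 2.01 ± 0.85 (adjusted p = 0.9999). Both S100 genes had an unadjusted p under 0.05 in this comparison, and neither did without mouse 48 (0.511% of tested genes higher at that level), nor without isotype mouse 63, 74 or 78 (0.99% to 1.7%), and only 1 did without isotype mouse 51 (1.68%). Anti-PD-1 alone ranged from 2.24 to 37.1 CPM, anti-GARP:TGF-β1 WT from 1.89 to 20.5 and FcD from 1.56 to 11.6, all overlapping the isotype mice.

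S100a8, the partner subunit, was spread in the same way. Isotype mice stood at 10.4, 3.81, 0.972, 0.864 and 0.554 CPM, the FcD combination at 24.1, 3.77, 6.65, 10.2 and 7.50 and the anti-TGF-β combination at 14.6, 9.35, 26.2, 2.55 and 8.96, in the mouse order given for S100a9. The groups overlapped through isotype mice 46 and 51. Mouse 46 lay above every mouse of the FcD combination but mouse 44, and above mice 57, 66 and 68 of the anti-TGF-β combination. Mouse 51 lay above mouse 50 of the FcD combination and mouse 66 of the anti-TGF-β combination. The log2 fold change against isotype was 1.64 ± 0.81 in the FcD combination (adjusted p = 0.305), 1.88 ± 0.82 in the anti-TGF-β combination (adjusted p = 0.205) and 0.73 ± 0.81 in the WT combination (adjusted p = 0.603). Without isotype mouse 46 these were 2.75, 2.99 and 1.85. Without the mouse that lowered it most, the value of the WT combination was 0.39 for S100a8 and 0.28 for S100a9 (mouse 45), and that of the FcD combination 1.07 and 1.31 (mouse 44). The subunits stayed in a narrow ratio, with 1.5 to 4.23 reads of S100a9 for each read of S100a8 over the 40 mice and a median of 2.41, or 3.20 per exon base.

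Fpr1 and Fpr2, the formyl peptide receptor genes, were higher in mean in all 3 combinations. Fpr1 stood at 6.86, 7.25, 3.89, 4.87 and 3.46 CPM in isotype mice and at 9.26, 6.63, 18.8, 9.50 and 58.9 CPM in mice 45, 55, 64, 69 and 77 of the WT combination. It stood at 14.8, 6.33, 20.0, 26.2 and 22.8 CPM in mice 44, 50, 60, 71 and 80 of the FcD combination. The ranges met only through the lowest mouse of each combination, mouse 55 or mouse 50, which lay under isotype mice 46 and 51. Against isotype the log2 fold change was 1.97 ± 0.57 in the WT combination (adjusted p = 0.159) and 1.77 ± 0.56 in the FcD combination (adjusted p = 0.225). Mouse 77 alone, with 946 Fpr1 reads, set much of the WT combination mean of 20.6 ± 21.9 CPM (SD, n = 5), and without it the log2 fold change was 1.07. In the anti-TGF-β combination the 5 mice lay from 6.51 to 15.8 CPM, and the log2 fold change was 0.98 ± 0.56 (adjusted p = 0.313).

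Fpr2 was steadier. It stood at 19.8, 22.3, 20.1, 15.4 and 17.7 CPM in isotype mice, 42.5, 23.8, 43.4, 43.4 and 45.6 in the FcD combination and 38.0, 40.7, 33.9, 30.8 and 38.3 in the anti-TGF-β combination. Every mouse of these 2 combinations lay above every isotype mouse, and in the WT combination mouse 55, at 21.7 CPM, lay below isotype mouse 51. The log2 fold change against isotype was 1.06 ± 0.36 in the FcD combination (adjusted p = 0.235), 0.95 ± 0.36 in the WT combination (adjusted p = 0.164) and 0.93 ± 0.36 in the anti-TGF-β combination (adjusted p = 0.168). In 1 anti-PD-1 mouse, mouse 47, Fpr2 stood at 7.83 CPM, the lowest of the 40 mice, although S100a9 was 37.1 CPM there.

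Clec4d and Clec4e, the paired lectin receptor genes, were higher in mean in all 3 combinations than in isotype mice. Clec4e stood at 10.9, 11.1, 7.15, 6.91 and 7.55 CPM in isotype mice, 24.8, 17.8, 15.1, 16.7 and 17.9 in the WT combination and 45.0, 12.0, 20.2, 29.1 and 21.2 in the FcD combination. All 10 mice of these combinations lay above all 5 isotype mice. In the anti-TGF-β combination mice 66 and 68, at 10.2 and 9.70 CPM, lay within the isotype range, and the other 3 lay above it. The log2 fold change against isotype was 1.55 ± 0.38 in the FcD combination (adjusted p = 0.225), 1.08 ± 0.38 in the WT combination (adjusted p = 0.159) and 0.95 ± 0.38 in the anti-TGF-β combination (adjusted p = 0.182).

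Clec4d stood at 22.4, 16.7, 12.1, 7.70 and 8.38 CPM in isotype mice, 50.9, 25.2, 36.7, 25.4 and 76.8 in the WT combination and 90.7, 17.9, 40.4, 52.5 and 39.1 in the FcD combination. The WT combination lay wholly above the isotype mice, and the FcD combination did except for mouse 50, which lay under isotype mouse 46. The log2 fold change against isotype was 1.67 ± 0.53 in the WT combination (adjusted p = 0.159), 1.83 ± 0.53 in the FcD combination (adjusted p = 0.225) and 1.16 ± 0.53 in the anti-TGF-β combination (adjusted p = 0.219), whose mice lay from 11.0 to 64.8 CPM.

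Csf3r, the G-CSF receptor gene, stood at 23.0, 23.5, 18.2, 19.4 and 20.6 CPM in isotype mice, 27.4, 22.1, 41.8, 25.3 and 159 in the WT combination and 67.5, 20.7, 42.5, 56.4 and 44.4 in the FcD combination. Mouse 77 carried 2549 Csf3r reads and raised the WT combination mean to 55.1 ± 58.4 CPM (SD, n = 5), and mouse 55 of that group and mouse 50 of the FcD combination stayed in the isotype range. The log2 fold change against isotype was 1.40 ± 0.48 in the WT combination (adjusted p = 0.159), 1.15 ± 0.48 in the FcD combination (adjusted p = 0.257) and 0.56 ± 0.48 in the anti-TGF-β combination (adjusted p = 0.507). Without mouse 77 the log2 fold change of the WT combination was 0.48 for Csf3r and 0.49 for Fpr2. Fpr1 and Csf3r are also among the genes the study drew in heat maps of these same samples, so their direction is not independent evidence.

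Trem1 had few reads. Its group means lay between 0.670 and 1.01 CPM, each mouse had 4 to 25 reads, and no difference was detected. Its log2 fold change against isotype was 0.44 in the WT combination (95% interval -0.31 to 1.19) and 0.34 in the FcD combination (-0.42 to 1.10), intervals that include 0 and also the log2 fold change of Fpr2 in the same comparison. The standard errors, 0.384 and 0.388, were close to those of Clec4e (0.381 and 0.383).

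Ly6g had 27 reads in all 40 mice, at most 4 in 1 mouse and 0 in 24 mice, and a count of 0 allows up to 0.141 to 0.251 CPM depending on the depth of the library. No difference in Ly6g was detectable at this depth. The entry spelled Retnig had 541 reads, from 0 to 6.16 CPM, with 0.742, 0.299, 0.278, 0 and 0.139 CPM in the isotype mice and the highest value in anti-TGF-β mouse 48. It stood at 4.76, 0.603, 1.20, 1.62 and 1.13 CPM in the FcD combination, 1.52, 0.844, 2.57, 0.824 and 1.62 in the anti-TGF-β combination and 1.75, 0.514, 0.632, 0.219 and 0.124 in the WT combination. All 5 mice of the anti-TGF-β combination and 4 of the FcD combination lay above every isotype mouse. Its log2 fold change against isotype was 2.60 ± 0.84 in the FcD combination (adjusted p = 0.225), 2.26 ± 0.84 in the anti-TGF-β combination (adjusted p = 0.159) and 1.07 ± 0.87 in the WT combination (adjusted p = 0.474). With anti-TGF-β alone its 95% interval was 0.86 to 4.15 (adjusted p = 0.9999), and the log2 fold change was 1.09 without mouse 48. With counts from 0 to 79 reads, such fold changes depend on few reads.

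In every gene, each pair of groups next to each other in the order of means overlapped. The plot of fold changes gives all 8 genes against isotype with their intervals.

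**Figure D2:**
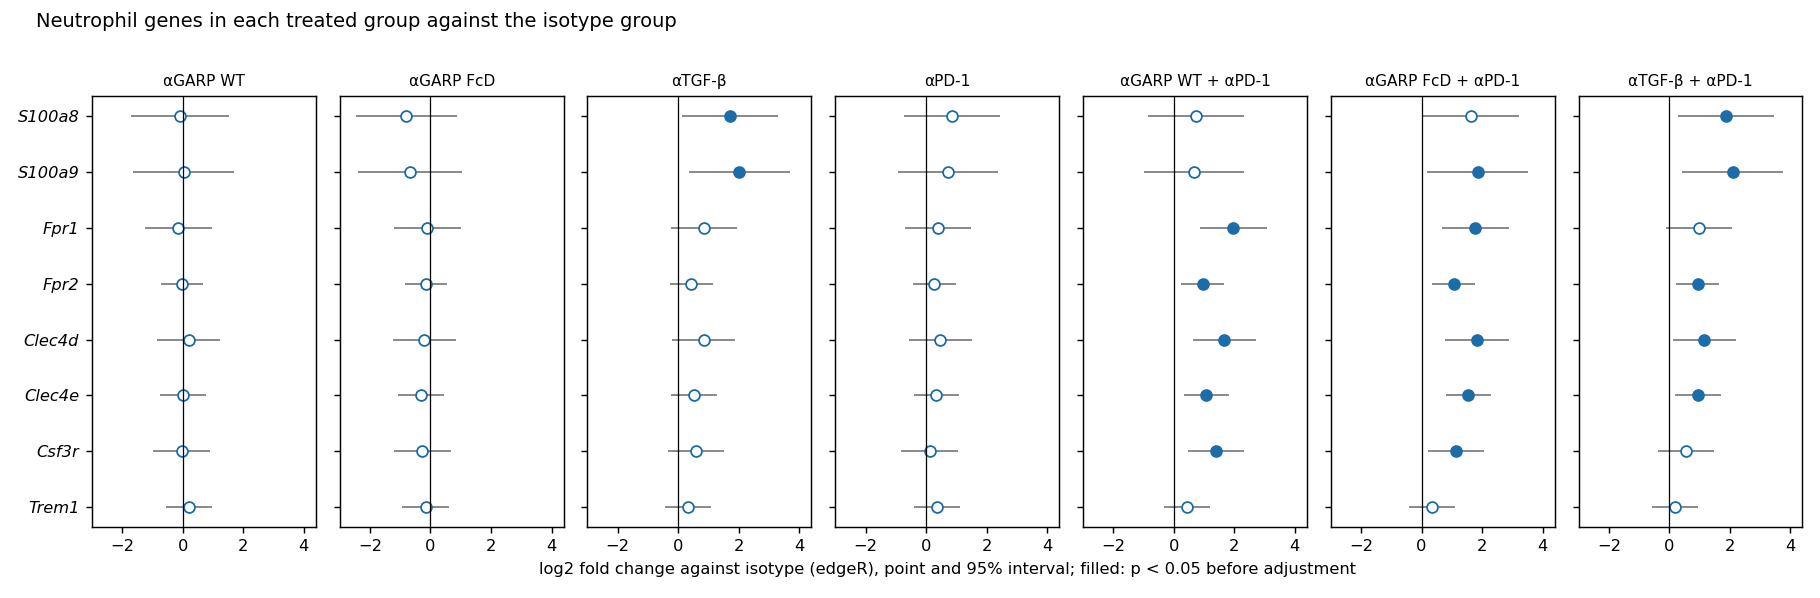
Log2 fold change of 8 neutrophil genes against the isotype control in the 7 treated groups, from edgeR's model of 40 mice, with approximate 95% intervals. The intervals rest on a normal approximation and are narrower than edgeR's test implies. That of S100a8 in the FcD combination, 0.042 to 3.23, excludes 0, but its unadjusted p in that test was 0.052. Filled points have an unadjusted p under 0.05, and none has an adjusted p under 0.05. In the FcD combination 6 of 8 points are filled, in the WT and the anti-TGF-β combination 5 of 8 each, and in the GARP antibodies alone none.

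Counts at an unadjusted p under 0.05 have to be read against the share of all tested genes that were higher at the same level. Against isotype they were 5 of 8 in the WT combination (Fpr1, Fpr2, Clec4d, Clec4e and Csf3r) where 13.2% of all tested genes were, 6 of 8 in the FcD combination (these 5 and S100a9) where 10.7% were, and 5 of 8 in the anti-TGF-β combination (S100a8, S100a9, Fpr2, Clec4d and Clec4e) where 8.49% were. None was higher with anti-GARP:TGF-β1 WT alone (0.583% of tested genes), with FcD alone (0.264%) or with anti-PD-1 alone (0.603%), and S100a8 and S100a9 were with anti-TGF-β alone (1.77%). At an adjusted p under 0.05 the share of all tested genes was 0% in each of these 7 comparisons.

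Groups that did not overlap gave a stricter reading. In the WT combination 2 of the 8 genes, Clec4d and Clec4e, had every treated mouse above every isotype mouse, as did 1.35% of tested genes. In the FcD combination these were Fpr2 and Clec4e (1.96% of tested genes), and in the anti-TGF-β combination Fpr2 alone (1.73%).

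These counts at an unadjusted p under 0.05 depended on single mice, and so did the share of all tested genes higher at that level, given in parentheses. Against isotype, the count in the WT combination was 3 of 8 without mouse 77 (2.81%) and 7 of 8 without isotype mouse 46 (12.1%). In the FcD combination it was 4 of 8 without mouse 44 (6.61%) and 7 of 8 without isotype mouse 46 (9.73%). In the anti-TGF-β combination it was 3 of 8 without mouse 53 (13.1%), without mouse 62 (4.92%) or without isotype mouse 63, 74 or 78 (6.06% to 11.1%). For anti-PD-1 alone it was 2 of 8 without isotype mouse 46 (0.856%). Without mouse 50, the lowest of the FcD combination, or mouse 60 it was also 7 of 8 in that group (14.9% and 10.1%). limma with sample weights, a test that lowers the influence of divergent mice, called 2 of 8 genes in the WT combination (Clec4d and Clec4e, with 0.339% of tested genes called), 7 of 8 in the FcD combination (25.2%) and 4 of 8 in the anti-TGF-β combination (Fpr2, Clec4e, S100a8 and S100a9, with 37% called). DESeq2's Wald test called 0, 1 and 0 of them, beside 0%, 0.0813% and 0.949% of tested genes.

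What the partner antibody added to anti-PD-1 was asked against anti-PD-1 alone. At an unadjusted p under 0.05, 3 of 8 genes were higher in the WT combination (11.2% of tested genes), 5 of 8 in the FcD combination (6.46%) and 0 of 8 in the anti-TGF-β combination (7%), with median log2 fold changes of 0.70, 1.08 and 0.63. After adjustment 0% of tested genes differed in the first 2 comparisons and 0.00678% (1 gene) in the last. Without mouse 77 the first count was 0 (2.15% of tested genes) and the median 0.29, and without anti-PD-1 mouse 52 they were 5 (15.2%) and 1.08. The second count was 2 without mouse 44 (3.34%) or anti-PD-1 mouse 54 (3.32%), and 3 without mouse 71 (2.77%) or anti-PD-1 mouse 67 (4.51%), and its median ran from 0.80 to 1.31. The last was 3 without anti-PD-1 mouse 52 (7.34%), with a median of 1.08, and 2 without mouse 47 (7.87%), and its median was 0.36 without mouse 53. High mice of the anti-PD-1 group itself were mouse 52, with 44.8 CPM of Csf3r and 20.8 CPM of Clec4e, and mouse 47, highest in S100a8 (16.4 CPM) and S100a9 (37.1 CPM).

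What anti-PD-1 added to the partner was asked against the partner alone. In the FcD combination, 7 of 8 genes were higher than with anti-GARP:TGF-β1 FcD at an unadjusted p under 0.05, where 13% of tested genes were. The largest were S100a9 at 2.53 ± 0.88 and S100a8 at 2.44 ± 0.85 on the log2 scale, and the lowest adjusted p among them was that of Clec4e and Clec4d, 0.122 each, at log2 fold changes of 1.87 ± 0.39 and 2.04 ± 0.54. The gene not past it was Trem1. The count was 7 whichever 1 mouse was left out, beside 8.12% to 16.6% of tested genes. Fpr2 and Clec4e did not overlap between these groups, like 2.65% of tested genes, and after adjustment 0% of tested genes differed.

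Against anti-GARP:TGF-β1 WT alone, 5 of 8 genes were higher in the WT combination (16.6% of tested genes), led by Fpr1 at 2.11 ± 0.57 (adjusted p = 0.0963), and 3 of 8 were without mouse 77 (7.33%). Clec4e did not overlap (2.74% of tested genes), and 0% of tested genes passed the adjusted test. Against anti-TGF-β alone, 0 of 8 were higher in the anti-TGF-β combination (3.96%), 0 of 8 did not overlap (0.149%), and 0% passed after adjustment. Without anti-TGF-β mouse 48 that first count became 5 of 8 (4.88%).

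The FcD and WT combinations, which differ in Fcγ receptor binding, had 0 of 8 genes apart at an unadjusted p under 0.05 (0.813% of tested genes higher with FcD, 0% after adjustment). The intervals were wide: the log2 difference, FcD minus WT, was 1.18 ± 0.83 for S100a9 (95% interval -0.43 to 2.80), 0.47 ± 0.37 for Clec4e (-0.26 to 1.20) and -0.25 ± 0.47 for Csf3r (-1.16 to 0.66). They do not show that the formats act alike.

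An interaction term asked whether a partner antibody's difference was larger in the presence of anti-PD-1 than without it. For FcD, Clec4e (1.52 ± 0.54 on the log2 scale) and Clec4d (1.57 ± 0.75) had an unadjusted p under 0.05 (2.45% of tested genes higher), with adjusted p = 0.787 for both. That count was 5 without mouse 50 (4.96%) or mouse 52 (6.99%), and 1 without mouse 44, 46, 51, 54, 58, 61, 67, 71, 75 or 76 (1.42% to 2.18%). For WT, Fpr1 alone did, at 1.72 ± 0.79 (4.3% of tested genes, adjusted p = 0.483). The count was 0 without mouse 42, 46, 47, 51, 54, 65, 73, 76 or 77 (1.59% to 5.27%), 2 without mouse 45, 55 or 69 (5.38% to 9.12%), and 4 without mouse 52 (10.3%). For anti-TGF-β, 0 of 8 did (0.752%). After adjustment 0% of tested genes passed in each of the 3 interactions.

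Asked whether any of the 8 groups differed, 7 of the 8 genes, all but Trem1, had an unadjusted p under 0.05, where 24.7% of tested genes did. Clec4e had the lowest adjusted p, 0.0827, and 0.0271% of tested genes (4 genes, none of these) passed.

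Libraries 41 to 60 and 61 to 80 differed in 4 of the 8 genes at an unadjusted p under 0.05, all lower in the later range (7.03% of tested genes lower), namely S100a8 (-1.18 ± 0.40 on the log2 scale), S100a9 (-1.13 ± 0.42), Clec4d (-0.82 ± 0.24) and Clec4e (-0.57 ± 0.17). None passed after adjustment, where 1.68% of tested genes did. Fpr1, Fpr2 and Csf3r differed between the ranges by at most 0.12 in either direction. Within libraries 41 to 60 the median log2 difference from isotype over the 8 genes was 0.22 in the WT combination, 0.75 in the FcD combination and 0.89 in the anti-TGF-β combination, and within libraries 61 to 80 it was 1.82, 2.02 and 0.92. All 8 genes were higher than in isotype in each combination within each range. Each range holds 2 or 3 mice of a group.

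Over the 40 mice S100a8 and S100a9 had a rank correlation of 0.968, and Fpr1, Fpr2 and Csf3r had 0.855 to 0.912 among themselves. The S100 pair and these 3 receptor genes were less alike, at 0.424 to 0.549. The lectin genes Clec4d and Clec4e, at 0.892 with each other, lay between: they had 0.685 to 0.804 with the S100 pair and 0.721 to 0.829 with the 3 receptor genes. With group means removed the S100 pair had 0.955, the 3 receptor genes 0.802 to 0.865 among themselves, and the lectin genes 0.773 with each other. They then had 0.601 to 0.796 with the S100 pair and 0.491 to 0.570 with the 3 receptor genes, and those 3 had 0.122 to 0.218 with the S100 pair. Trem1 had a median of 0.135 with the other 7. These are descriptions over 40 mice that share library ranges and treatment groups, and the grouping was chosen after the values were seen. Some mice were high in one group of genes and not in the other: WT combination mouse 77 ranked first of 40 for the mean of the 5 receptor genes, lectins included, and 19 for the S100 pair, whereas anti-PD-1 mouse 47 ranked 4 for the S100 pair and 38 for the receptors. Anti-TGF-β mouse 48 and FcD combination mouse 44 were high in both.

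**Figure D3:**
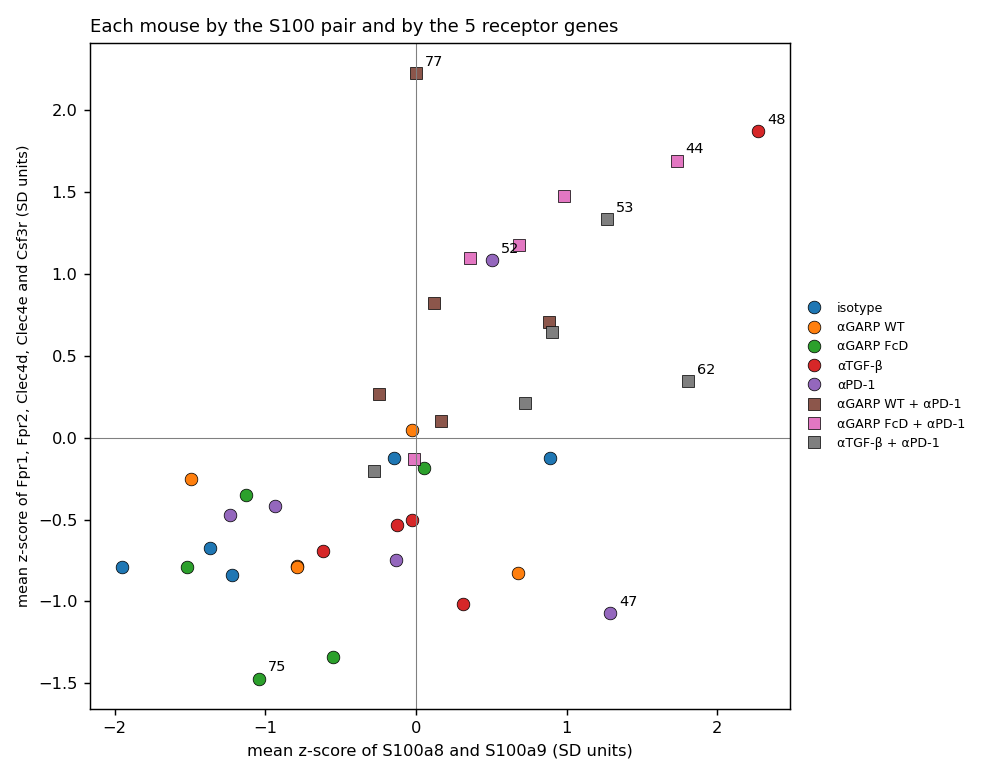
Mean standardized level of S100a8 and S100a9 (horizontal axis) against that of Fpr1, Fpr2, Clec4d, Clec4e and Csf3r (vertical axis) in each of 40 mice, in standard deviations of log2 CPM. Squares are the combination groups, and the numbers are library numbers. Mouse 77 lies at 2.23 on the receptor axis and near 0 on the S100 axis, and mouse 47 lies at 1.29 on the S100 axis and -1.07 on the receptor axis.

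The tested genes outside the list whose ranks over the 40 mice were most like the mean of the 8 were Hdc (rho 0.915), Bst1 (0.915), Hcar2 (0.913), Spic (0.896), Cyp4f18 (0.889), Basp1 (0.874), RP23-205D10.2 (0.871), Nr1h3 (0.864), Plin2 (0.863) and Acod1 (0.862). Hdc encodes histidine decarboxylase. Of these 10, 9 stayed among the first 10 without mouse 48, which had the highest mean of the 8 genes, and 5 with group means removed. The lowest mean belonged to mouse 75, of the FcD group. For the S100 pair alone the most alike were Hdc (0.919), the neutrophil chemokine receptor gene Cxcr2 (0.912) and Cxcl2 (0.909), and for the 5 receptors Bst1 (0.957), Nr1h3 (0.956) and Hk3 (0.954), followed by Acod1 (0.951), Tnf (0.945), RP23-52N2.1 (0.945), Cd38 (0.944), Fcgr4 (0.934), Clec12a (0.934) and Rbm47 (0.931). Nr1h3 encodes the oxysterol receptor LXRα, best known from macrophages, and Acod1 the enzyme that makes itaconate in activated macrophages, while Tnf, Cd38, Fcgr4 and Clec12a are used by monocytes and macrophages as well as by other cells. In whole tumors, reads of the 5 receptors cannot be assigned to neutrophils alone. The first 10 for the S100 pair and for the receptors shared 0 genes.

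Some other neutrophil genes, in 6 lists by role, were also higher in mean in the combinations, and none passed after adjustment. This was not particular to the combinations: with anti-TGF-β alone the summed level of each list also averaged above isotype. Cytosol genes summed to 96.7 CPM there, beside 56.4 in isotype mice and 93.3 in the anti-TGF-β combination, and to 66.9 without mouse 48. Without that mouse the granule, receptor, oxidase and partner sums averaged below isotype. The counts of each list and marker list against isotype stand beside 13.2%, 10.7% and 8.49% of all tested genes higher at an unadjusted p under 0.05 in the WT, FcD and anti-TGF-β combination. Of granule and antimicrobial proteins 9 of 13 listed genes were tested, and 4 in the WT, 5 in the FcD and 1 in the anti-TGF-β combination were higher than in isotype at an unadjusted p under 0.05, with 1 lower in the WT combination. The 1 of 9 in the anti-TGF-β combination is near the share of all genes. The lower one was Mmp9, a gelatinase gene, at -0.60 ± 0.24. Lyz2, encoding lysozyme, was at 0.76 ± 0.30 in the WT and 0.69 ± 0.30 in the FcD combination, and Lcn2, encoding lipocalin 2, at 1.32 ± 0.58 in the FcD combination. The azurophil and specific granule genes Mpo, Elane, Camp and Ngp were at 0 to 3 reads in every isotype mouse. Ltf, encoding lactoferrin, had 8 to 1210 reads in libraries 61 to 80 and 0 to 11 in libraries 41 to 60.

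Of neutrophil receptors and adhesion molecules (12 of 15 tested), 4, 6 and 3 were higher in the WT, FcD and anti-TGF-β combination, respectively, and of mature neutrophil cytosol genes (9 of 14 tested) 2, 6 and 3. Fcgr4, an activating Fcγ receptor gene, was at 1.27 ± 0.49 in the WT combination, C5ar1, the C5a receptor gene, at 0.58 ± 0.24, and Itgam, encoding CD11b, at 0.57 ± 0.26. Hdc was at 1.34 ± 0.46 in the FcD combination, Mxd1 at 0.73 ± 0.24 and Slfn4 at 0.90 ± 0.34 in the WT combination. Of the 6 NADPH oxidase genes, which make the oxidative burst, 4, 2 and 2 were higher. Those named here for their high levels, not for their p, were Rac2 at 1.34 ± 0.43, Cybb at 1.05 ± 0.41 and Cyba at 0.24 ± 0.15 in the WT combination.

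Partners and signaling molecules of the 10 genes (19 of 20 tested) had 11, 9 and 2 higher, the last of these near the share of all genes. Among them were Fcer1g, the adaptor through which Clec4e signals, at 0.96 ± 0.31 in the WT combination and Stat3, which acts below Csf3r, at 0.38 ± 0.14. Anxa1, encoding a ligand of the formyl peptide receptors, was at -0.17 ± 0.11. Of attractants and growth factors (10 of 12 tested), 2, 6 and 3 were higher. The 2 of 10 in the WT combination became 1 without mouse 45, 55, 64, 77, 63 or 74, and the share of all tested genes in each run is not set beside it. Tnf was at 1.16 ± 0.34 in the FcD combination, Il1b at 0.69 ± 0.28 and Cxcl1, a neutrophil chemokine gene, at 0.90 ± 0.45. The median log2 fold changes of these 6 lists against isotype, in the order WT, FcD and anti-TGF-β combination, were 0.88, 0.94 and 0.73 for granule genes, 0.57, 0.62 and 0.53 for receptors, 0.72, 1.54 and 1.22 for cytosol genes, 0.72, 0.57 and 0.45 for the oxidase, 0.46, 0.49 and 0.30 for partners, and 0.48, 1.16 and 1.02 for attractants.

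The list counts against isotype also rested on single mice, as runs with 1 mouse left out showed. In the WT combination without mouse 77, where 2.81% of tested genes were higher, 2 granule genes, 1 receptor gene, 0 oxidase genes and 2 partner genes were higher in place of 4, 4, 4 and 11, and without isotype mouse 63 the receptor count was 2 (10.8%). In the FcD combination the lowest counts were 2 granule genes without mouse 71 (5.3%) or isotype mouse 74 (7.72%), 3 receptor genes without isotype mouse 63 (8.8%), 0 oxidase genes without isotype mouse 46 (9.73%), 4 partner genes without mouse 44 (6.61%), and 3 attractants without mouse 44 or isotype mouse 63, 74 or 78 (6.61% to 8.8%). Its cytosol count ran from 4 to 9. In the anti-TGF-β combination the counts ran from 1 to 3 for granule genes, 2 to 5 for receptors, 1 to 6 for cytosol genes, 1 to 2 for the oxidase, 1 to 6 for partners and 1 to 7 for attractants, with the highest granule, cytosol and attractant counts without isotype mouse 46 (6.93%) and the highest partner count without isotype mouse 63 (11.1%). The summed oxidase level of the WT combination averaged 1001 CPM with mouse 77, which stood at 2264 CPM, and 685 CPM without it.

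Summed levels of some markers of other cells varied along with these genes over the 40 mice, and their part in the differences was not tested. The rank correlation with the mean of the 8 genes ran over the marker lists from -0.11 for skeletal muscle, 0.059 for keratinocyte and 0.266 for B cell markers to 0.751 for mast cell markers. None of the markers passed after adjustment. Ptprc, encoding the leukocyte antigen CD45, was 134 ± 25.8 CPM in isotype mice, 302 ± 271 in the WT combination, 240.2 ± 75.0 in the FcD combination and 152 ± 54.9 in the anti-TGF-β combination (SD, n = 5). Mouse 77 stood at 782 CPM of Ptprc, and the WT combination averaged 182 CPM without it. The summed level of 10 monocyte and macrophage markers was 1856 to 2638 CPM in isotype mice, 2060 to 8430 in the WT, 2465 to 3771 in the FcD and 2675 to 3368 in the anti-TGF-β combination, and 6, 4 and 2 of the 10 were higher than in isotype at an unadjusted p under 0.05. The WT count was 1 without mouse 77, whose sum was the 8430 CPM and without which the group averaged 2460 in place of 3654 CPM. The FcD count was 1 without mouse 44 or 71 or without isotype mouse 74 or 78. Its rank correlation with the mean of the 8 genes over the 40 mice was 0.728. For mast cell markers 6, 6 and 2 of 6 were higher, with Cpa3 at 1.81 ± 0.49 in the WT combination, and for erythroid markers 5, 5 and 1 of 5. The mast cell counts were 6 in the WT and FcD combinations whichever 1 mouse was left out and ran from 0 to 5 in the anti-TGF-β combination, and the erythroid count was 0 in the WT combination without mouse 45 and ran from 2 to 5 in the FcD combination. Marker counts with 1 mouse left out, here and below, are not set beside the share of all tested genes in the same run. That share also depended on single mice.

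Of the other lists, in the order WT, FcD and anti-TGF-β combination, 2, 4 and 0 of 6 dendritic cell markers were higher, 1, 1 and 1 of 6 T cell markers (Cd4), 0, 0 and 3 of 3 B cell markers, 2, 0 and 2 of 3 tested NK cell markers, 0, 2 and 0 of 4 tested keratinocyte markers, 0, 3 and 0 of 3 adipocyte markers, and 0, 0 and 0 of 3 tested skeletal muscle markers. The 3 B cell markers became 0 without mouse 68, at 57.0 of the summed CPM, and the group then averaged 1.65 in place of 12.7 CPM. Without mouse 77 the dendritic, T and NK cell counts of the WT combination were 0. With 1 mouse left out, the FcD combination counts ran from 0 to 4 for dendritic, 0 to 3 for keratinocyte and 1 to 3 for adipocyte markers. Eosinophil markers, whose summed level was 0.629 to 1.57 CPM in isotype mice and at most 4.68 CPM in the combinations, had 1 of 6 genes tested and none higher. Lor, a keratinocyte marker, was at 0 in all mice of these 4 groups.

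Dividing each gene by Ptprc in the same mouse gave its reads per Ptprc read, as a description with no test. In the FcD combination the ratio of group means to isotype was then 1.71 for S100a8, 1.97 for S100a9, 1.87 for Fpr1, 1.92 for Clec4d, 1.63 for Clec4e, 1.21 for Csf3r, 1.19 for Fpr2 and 0.736 for Trem1. In the WT combination it was 1.74 for Clec4d, 1.58 for Fpr1, 1.39 for Clec4e, 1.18 for S100a8, 1.11 for S100a9, 1.06 for Csf3r, 0.962 for Fpr2 and 0.866 for Trem1. In the anti-TGF-β combination, whose Ptprc was nearest to isotype, it was 4.53 for S100a9, 3.95 for S100a8, 1.94 for Clec4d, 1.79 for Fpr1 and Fpr2, 1.75 for Clec4e, 1.28 for Csf3r and 1.04 for Trem1. Anti-GARP:TGF-β1 WT alone had 1.57 for S100a8, 1.67 for S100a9, 1.46 for Trem1, 1.14 for Fpr2 and 1.10 for Csf3r, each above the WT combination. Its S100 ratios were 0.645 and 0.689 without mouse 73. Anti-TGF-β alone had 1.98 for S100a8 and 2.34 for S100a9, above the FcD combination, and 1.36 and 1.54 without mouse 48. FcD alone ranged from 0.731 for S100a8 to 1.12 for Trem1. Anti-PD-1 alone had 2.92 for S100a8, 2.71 for S100a9 and values above 1 for the other 6 genes, but without mouse 47 its S100 ratios were 0.868 and 0.726. None of these differences between groups was tested. The S100a9 ratio ran, with 1 mouse left out, from 0.721 (without mouse 45) to 2.83 in the WT and from 2.48 (without mouse 62) to 11.5 in the anti-TGF-β combination, each highest without isotype mouse 46, and in the FcD combination its lowest value was 1.47 (without mouse 44). That of S100a8 ran from 0.800 to 2.77 in the WT, from 1.27 to 4.03 in the FcD and from 2.11 to 9.32 in the anti-TGF-β combination, lowest and highest without those same mice. The spread was wide. Per 100 Ptprc reads, S100a9 was 5.81 ± 7.99 reads in isotype mice, 15.8 ± 25.9 with anti-PD-1, 6.46 ± 5.44 in the WT, 11.4 ± 6.81 in the FcD and 26.3 ± 27.1 in the anti-TGF-β combination (SD, n = 5). Fpr1 was at 3.92 ± 1.00 in isotype mice and 7.32 ± 1.72 in the FcD combination.

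**Figure D4:**
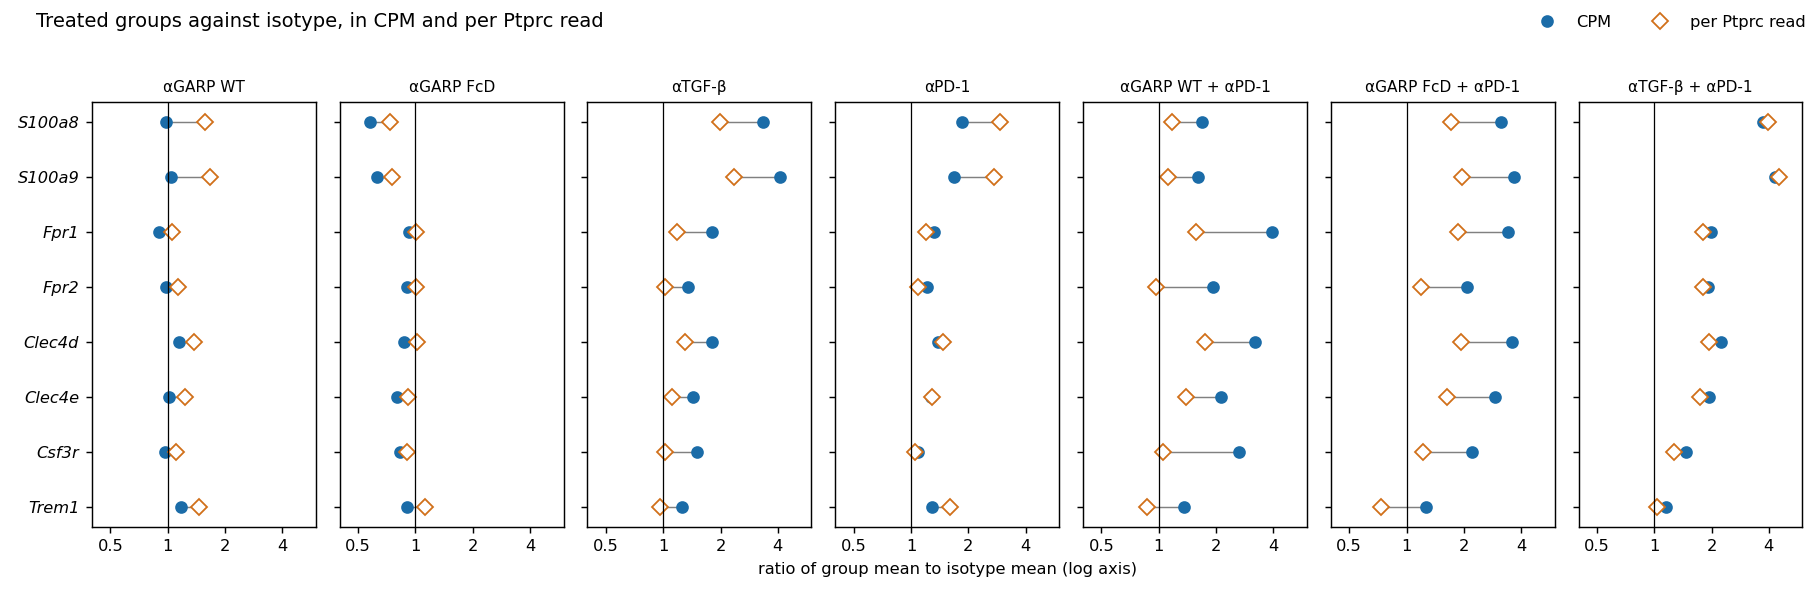
Ratio of the group mean to the isotype mean for 8 neutrophil genes in the 7 treated groups, on a log axis, from CPM (blue circles) and from CPM divided by Ptprc in the same mouse (open orange diamonds). In the WT combination the diamonds for Fpr2 (0.962) and Csf3r (1.06) lie near 1, in the anti-TGF-β combination those for S100a8 and S100a9 lie at 3.95 and 4.53, and the S100 diamonds of anti-GARP:TGF-β1 WT alone (1.57 and 1.67) lie above those of the WT combination (1.18 and 1.11).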

How the data were processed

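Per the labels, mRNA libraries were stranded, and the submitters' processing notes name STAR 2.5.3a, SAMtools 1.6, HTSeq 0.9.1 and the GRCm38 build. The values deposited by the authors are raw read counts of 54087 entries in 40 columns, all used, and the annotation release behind the counts is not given in the sources used here. Totals ran from 11931730 to 20680548 reads per mouse, and intervals cover the spread between mice in the model. Each library is 1 mouse.

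Counts were scaled by TMM and filtered by filterByExpr, and edgeR 4.0.16 (R 4.3.3) fitted a robust quasi-likelihood model over all 40 mice and 8 groups, with 2-sided tests and Benjamini-Hochberg adjustment over the 14760 tested genes at 0.05. There were 14 comparisons of 2 groups and 3 interactions. The values after ± on the log2 scale are standard errors. Levels for ranks are log2 CPM with a prior count of 2 (alternative 0.5). The method was tested on simulated counts. Alternatives were DESeq2 1.42.0 size factors and tests, limma 3.58.1 with voom and sample weights, no filter, only the compared groups, library range (41 to 60 or 61 to 80) as covariate, and each mouse left out. Leaving out mice for the lists and the Ptprc ratios, and the gap rule on log2 CPM, were added after the data were seen. Python 3.11.15 (numpy 2.4.6, scipy 1.17.1, pandas 2.3.3) served for the summaries.

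The genes, 6 neutrophil lists and 12 marker lists (monocyte and macrophage, dendritic, T, B, NK, eosinophil, mast, keratinocyte, erythroid, skeletal muscle, adipocyte and leukocyte) were chosen with earlier results of these data known. Named from each list by rule were up to 3 genes with the highest mean log2 CPM, and any passing the adjusted threshold; from outside the lists, the 10 genes with the highest Spearman rho to the mean of the 8 standardized genes, and the mice with the highest and the lowest such mean. Mmp9, Mpo, Elane, Camp, Ngp, Ltf and Lor were also named after their values were seen where they fell outside it, as were the most alike genes of the S100 pair and of the 5 receptors.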

Additional observations from a re-analysis of the deposited data

Results flagged for a closer look

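In a group of 5 mice, the highest or lowest mouse was marked where its gap to the next mouse, divided by the range of the group, passed 0.71. Of 72 groups examined, over the 8 tested genes and the entry spelled Retnig, 21 passed, 20 of them through a high mouse. Chance marks about 1 in 20 groups of normally distributed values, a rate that does not carry over to CPM, which are skewed to high values. On log2 CPM, a scale added after the data were seen, 6 of the 72 passed. Most marks fell on few mice, and none of the causes was tested. Mouse 48 of the anti-TGF-β group stood above its group in S100a8 (40.7 CPM, next mouse 5.24), S100a9 (119.9 CPM, next mouse 14.7), Fpr1 (26.3 CPM, next mouse 7.66), Fpr2 (56.8 CPM, next mouse 21.8), Clec4d (70.5 CPM, next mouse 17.9), Clec4e (32.8 CPM, next mouse 9.19), Csf3r (88.0 CPM, next mouse 20.4) and Retnig (6.16 CPM, next mouse 1.06). Mouse 77 of the WT combination group stood above its group in Fpr1 (58.9 CPM, next mouse 18.8), Fpr2 (76.6 CPM, next mouse 32.6) and Csf3r (159 CPM, next mouse 41.8). Mouse 45 of the WT combination group stood above its group in S100a9 (24.6 CPM, next mouse 10.4) and Clec4e (24.8 CPM, next mouse 17.9). Mouse 52 of the anti-PD-1 group stood above its group in Clec4e (20.8 CPM, next mouse 9.51) and Csf3r (44.8 CPM, next mouse 19.8). Mouse 41 of the anti-GARP:TGF-β1 FcD group stood above its group in S100a9 (11.6 CPM, next mouse 4.26). Mouse 44 of the FcD combination group stood above its group in Retnig (4.76 CPM, next mouse 1.62). Mouse 46 of the isotype group stood above its group in S100a9 (25.4 CPM, next mouse 7.47). Mouse 47 of the anti-PD-1 group stood above its group in Retnig (2.29 CPM, next mouse 0.428). Mouse 50 of the FcD combination group stood below its group in Fpr2 (23.8 CPM, next mouse 42.5). Mouse 53 of the anti-TGF-β combination group stood above its group in Csf3r (54.3 CPM, next mouse 28.4).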

How the results depend on the processing

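None of the 8 genes passed the adjusted threshold in the comparisons of 2 groups, and this depended on the test. The share of all tested genes called by the same test follows each count. limma with sample weights called, against isotype, 2 in the WT (0.339%), 7 in the FcD (25.2%) and 4 in the anti-TGF-β combination (37%); against anti-PD-1, 7 in the FcD (24.6%) and 2 in the anti-TGF-β combination (25.8%); against the partner alone, 1 in the WT (0.467%), 7 in the FcD (32%) and 1 in the anti-TGF-β combination (9.55%); 5 in the interaction of FcD (9.59%), 7 over the 8 groups (57.8%) and 2 between library ranges (6.28%). With only the compared groups in the model, 4 were called in the FcD (1.3%) and 1 in the anti-TGF-β combination (0.0593%) against isotype, and 7 in the FcD combination against FcD alone (3.49%). DESeq2 called 1 in the FcD combination against isotype (0.0813%), 2 in the WT (4.44%) and 4 in the FcD combination (1.39%) against the partner alone, 6 over the 8 groups (8.87%) and 3 between library ranges (3.01%). With library range as a covariate, 1 was called in the FcD combination against FcD alone (0.0271%) and 2 over the 8 groups (0.237%). DESeq2's size factors and no filter on low counts called none of the 8. The cause was not tested.

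With 1 mouse left out, counts of called genes ran from 0 to 4 in the FcD combination against FcD alone (4 without mouse 50, where 4.81% of tested genes were called), 0 to 4 in the WT combination against WT alone (4 without mouse 55, 11.4%), 0 to 1 in the WT combination against anti-PD-1 (1 without mouse 52, 3.6%) and 0 to 5 over the 8 groups (5 without mouse 48, 2.61%, or mouse 53, 15.3%). The median log2 difference ran from -0.047 to 0.86 for anti-TGF-β against isotype (lowest without mouse 48), -0.046 to 1.10 for the anti-TGF-β combination against anti-TGF-β alone (lowest without mouse 59, highest without mouse 48) and -0.51 to 0.75 for their interaction (lowest without mouse 53, highest without mouse 48). It ran from -0.023 (without mouse 44) to 0.62 (without mouse 77) between the FcD and WT combinations and from 0.32 (without mouse 77) to 1.09 (without mouse 52) for the interaction of WT. The anti-TGF-β interaction median was 0.65 with limma, beside -0.21 in edgeR's model.

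None of the 8 genes had been called, so a change of sign says nothing of a called difference, and signs were followed only against isotype and against anti-PD-1. With limma the sign changed against isotype for WT alone in S100a9 (-0.12), Clec4e (-0.016) and Trem1 (-0.051), anti-TGF-β alone in Clec4e (-0.10), Trem1 (-0.27) and Csf3r (-0.13), anti-PD-1 alone in Csf3r (-0.13) and the FcD combination in Trem1 (-0.0076), and for the WT combination against anti-PD-1 in S100a8 (1.23), S100a9 (1.40) and Trem1 (-0.20). With library range as a covariate it changed for WT alone in S100a8 (0.33) and Clec4e (-0.071), and for the WT combination against anti-PD-1 in S100a8 (0.30) and S100a9 (0.37).

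With 1 mouse left out, the log2 difference from isotype changed sign for FcD alone in Clec4d (-0.55 to 0.066), Fpr1 (-0.31 to 0.11), S100a8 (-1.24 to 0.31), S100a9 (-1.30 to 0.57) and Trem1 (-0.31 to 0.032); for WT alone in Clec4d (-0.074 to 0.46), Clec4e (-0.10 to 0.12), Csf3r (-0.10 to 0.044), Fpr2 (-0.17 to 0.041), S100a8 (-0.76 to 1.03) and S100a9 (-0.65 to 1.27); for anti-PD-1 alone in Clec4d (-0.036 to 0.74), Clec4e (-0.013 to 0.46), Csf3r (-0.28 to 0.26), Fpr1 (-0.15 to 0.59), Fpr2 (-0.13 to 0.49) and S100a9 (-0.16 to 1.98); and for anti-TGF-β alone in Clec4d (-0.088 to 1.10), Clec4e (-0.23 to 0.70), Csf3r (-0.29 to 0.76), Fpr2 (-0.075 to 0.63) and Trem1 (-0.019 to 0.54). Against anti-PD-1 it did so for the WT combination in S100a8 (-0.48 to 0.64), S100a9 (-0.46 to 0.82) and Trem1 (-0.020 to 0.22), and for the FcD combination in Trem1 (-0.32 to 0.14). Mean levels hardly moved with a prior count of 0.5.

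No paired analysis was possible because the labels give no replicate numbers that groups share. Leaving out mice was not run for the library ranges. Trem1 and Ly6g had few reads, and all bulk levels mix cell types.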
